A study of Mus musculus with 12 samples.

Results

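A set of 9 genes of the Notch signalling pathway is described here across 12 RNA sequencing libraries of mouse dorsal hippocampus at postnatal day 7. They are the ubiquitin ligase gene Mib1, the receptor genes Notch1 and Notch2, the ligand genes Dll1 and Jag1, the DNA-binding effector gene Rbpj and the target genes Hes1, Hes5 and Hey1. These 9 members were picked by symbol out of 52634 genes in the count table, and all 9 passed the filter on low counts that kept 17631 genes. Mib1 was picked with its result known: in an earlier look at these data it was among the genes with the smallest p between genotypes in libraries labelled female. The other 8 were listed with it for their place in the pathway, again with results of these data known. The labelled-female values of all 9 are therefore a description, and the members are tested only between genotypes among libraries labelled male.

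The SERTPyramid group, written SERTPyramid∆ in the sample titles, lacks Slc6a4, the gene of the serotonin transporter, in pyramidal neurons through a conditional deletion, and the series title places these neurons in the hippocampal field CA3. The SERTfl/fl group is its control and carries loxP-flanked Slc6a4, as do the deleted mice before recombination. Each group was sampled separately for libraries labelled female and male, with 3 libraries for each of the 4 combinations and tissue of 4 mice pooled in each library. The sources used here name neither the driver of the deletion nor any litters shared between pools, and p-values therefore reflect the spread between pools, which may be technical.

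Notch is a receptor system between neighbouring cells. Ligands of the Delta and Jagged families on a sending cell bind Notch receptors on the receiving cell, and the ligase Mib1 tags the ligands so that they are pulled into the sending cell, which is needed for signalling. The receptor is then cut by ADAM proteases and gamma-secretase, and its inner part joins Rbpj in the nucleus and switches on repressors such as Hes1, Hes5 and Hey1. In the young hippocampus the pathway is known for keeping neural stem cells undifferentiated, and for its part in blood vessels.

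Facts of the whole data set bear on these values. Library totals ran from 18747249 to 25522347 counts. Slc6a4 had 12, 3 and 1 counts in SERTPyramid and 5, 16 and 9 in SERTfl/fl libraries labelled female, and 8, 3 and 7 counts in SERTPyramid and 0, 17 and 12 in SERTfl/fl libraries labelled male, too few to check the genotype labels (a count of 0 allows up to 0.160 CPM in that library, counting error only). Sex-chromosome transcripts (Xist, and Y-linked genes) went against the labelled sex in 10 of 12 libraries, and the 2 libraries that matched it were SERTfl/fl replicate 1 of both labelled sexes. Female and male below are the labels, and member values without those 2 libraries are given for Mib1 and where the sign within a labelled sex changed. SERTfl/fl replicate 3 labelled female held both kinds of transcript, with 23.2 CPM of Xist and 126 CPM of Y-linked genes. The other libraries with Y-linked transcripts above Xist had 0.613 to 2.53 CPM of Xist. The cause was not tested. None of the 8 pyramidal neuron markers looked at was at 0 in any library, and their summed level was 3651 to 4646 CPM.

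All levels below are CPM, counts scaled to a common library total, after TMM scaling, which adjusts those totals for differences in composition. Divided by exon length, the order of the 9 members was Mib1 (15.9 ± 1.07 CPM per kb, SD over 12 libraries), Hes5 (13.3 ± 0.961), Hey1 (11.1 ± 0.519), Notch1 (7.15 ± 0.41), Notch2 (6.49 ± 0.458), Dll1 (5.05 ± 0.376), Hes1 (3.51 ± 0.316), Jag1 (1.82 ± 0.141) and Rbpj (1.36 ± 0.092). The ranges over libraries overlapped between Mib1 and Hes5, Hes5 and Hey1, Notch1 and Notch2, Notch2 and Dll1, and Jag1 and Rbpj, so the pooled ranges do not separate those neighbours. Within libraries the order was steadier: Hes5 was above Hey1 and Jag1 above Rbpj in 12 of 12 libraries, and Mib1 was above Hes5, Notch1 above Notch2 and Notch2 above Dll1 in 11 of 12. In tissue RNA fewer cells of a type and less RNA per cell cannot be told apart, here and in all results that follow. With the length of the longest transcript in place of the union of exons, Hes5 and Hey1 exchanged places, as did Jag1 and Rbpj. The repressor genes were thus not at a common level, with Hes5 and Hey1 above and Hes1 below both receptors.

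**Figure D1:**
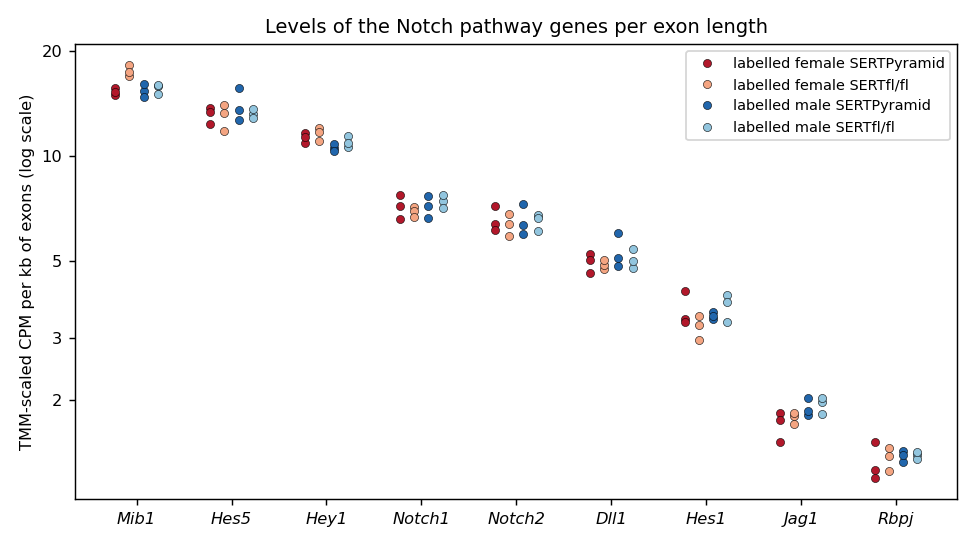
Level of each of the 9 genes per kb of exons (TMM-scaled CPM per kb, log scale), with 1 point for each of 12 libraries coloured by genotype and labelled sex. Mib1, Hes5 and Hey1 lie highest, and the groups of a gene lie close together beside the distance between genes, with Mib1 of SERTfl/fl libraries labelled female above the rest.

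The members varied little. The coefficient of variation over all 12 libraries ran from 4.68% for Hey1 to 9.0% for Hes1. Counting error alone would give 3.46% for Hey1 and 7.79% for Hes1, which had 138 to 185 counts. For Mib1, with 3087 to 4658 counts, variation was 6.69% against 1.57% from counting. The highest library exceeded the lowest by 1.17-fold for Hey1 and 1.38-fold for Hes1.

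The promoter windows of Rbpj and of its target Hes5 are shown because Rbpj binds sites with the core TGGGAA, as background, and theirs were the member windows that held those letters. RefSeq promoter sequences (GRCm38.p6, 250 bases before to 50 after the start site) matched 6 of the 9 members, in 8 windows. The Hes5 window (chr4:154960673-154960972, plus strand) and the upstream of 2 Rbpj windows (chr5:53590096-53590395, plus strand) are shown 5′ to 3′ with TGGGAA, or its reverse complement TTCCCA, in capitals.
Hes5: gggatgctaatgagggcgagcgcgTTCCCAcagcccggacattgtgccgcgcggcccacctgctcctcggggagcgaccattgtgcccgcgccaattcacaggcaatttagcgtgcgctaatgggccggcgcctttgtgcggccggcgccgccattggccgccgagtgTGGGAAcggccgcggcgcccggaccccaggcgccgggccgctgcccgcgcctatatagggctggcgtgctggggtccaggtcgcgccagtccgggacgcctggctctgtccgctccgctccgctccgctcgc
Rbpj: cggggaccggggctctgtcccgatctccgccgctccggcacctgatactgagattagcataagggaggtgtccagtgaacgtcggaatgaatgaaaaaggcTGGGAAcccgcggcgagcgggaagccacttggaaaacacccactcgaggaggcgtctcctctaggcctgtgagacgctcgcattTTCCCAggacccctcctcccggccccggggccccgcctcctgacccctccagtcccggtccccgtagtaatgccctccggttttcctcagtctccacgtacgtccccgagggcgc
In Hes5 the matches began at positions -226 (reverse) and -82 (forward) from the start site, and both extended to the longer GTGGGAA, a motif added after the sequences were seen. In the upstream Rbpj window they began at -149 (forward) and -65 (reverse). TGGGAA was found on either strand in 25.6% of all 32851 promoter windows and GTGGGAA in 6.38%, and among the 6 members with sequence TGGGAA was in 2, Hes5 and Rbpj. The N box CACNAG, a sequence bound by Hes repressors, was in the windows of 3 members, Notch1, Notch2 and Dll1, and in 42.5% of all windows. These are matches of letters and no evidence of binding.

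Libraries labelled male gave the comparison whose group means the choice of Mib1 did not use. Its spread was estimated from all 12 libraries, those labelled female included. No member was called between genotypes: 0 of 9 passed an adjusted p of 0.05 in edgeR's quasi-likelihood test, where 0% of all 17631 genes passed (before adjustment 558 genes had p under 0.05, and neither DESeq2 nor limma voom called any). The adjusted p was 0.999 for each member by edgeR. Groups overlapped for all 9 members, while 3.67% of all genes had every SERTPyramid library above and 3.26% every SERTPyramid library below the SERTfl/fl libraries. The 95% intervals of the 9 fold changes lay between 0.803-fold and 1.19-fold, each interval being taken by itself. With labelled-male libraries fitted alone the bounds reached 0.797-fold (Hes1) and 1.21-fold (Dll1).

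In these libraries the ligase gene Mib1 (ENSMUSG00000024294, GRCm38 chromosome 18, 10725548 to 10818704) had 168, 175 and 162 CPM in SERTPyramid and 164, 173 and 174 CPM in SERTfl/fl. The groups cover nearly the same range, and the log2 fold change was -0.02 ± 0.05 (SE), with a 95% interval of -0.12 to 0.08. With labelled-male libraries fitted alone the SE was 0.056 and the interval -0.141 to 0.105. Without replicate 1 of both SERTfl/fl groups the log2 fold change was -0.04.

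The receptor gene Notch1 (chromosome 2, 26457903 to 26516663) had 102, 109 and 94.2 CPM in SERTPyramid and 105, 101 and 110 CPM in SERTfl/fl libraries labelled male. Its log2 fold change was -0.05 ± 0.06 (SE). Notch2 (chromosome 3, 98013527 to 98150361) had 78.6, 68.1 and 64.4 CPM in SERTPyramid and 65.8, 72.8 and 71.5 CPM in SERTfl/fl, a log2 fold change of 0.0057 ± 0.078 (SE). Without replicate 1 of both SERTfl/fl groups the Notch2 value was -0.03. For Notch1 the highest value was in SERTfl/fl and the lowest in SERTPyramid, and for Notch2 both extremes were SERTPyramid libraries, with the SERTfl/fl values between them.

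The ligand gene Dll1 (chromosome 17, 15367354 to 15376872) had 21.4, 20.4 and 25.3 CPM in SERTPyramid and 22.8, 20.1 and 21.02 CPM in SERTfl/fl libraries labelled male. SERTPyramid replicate 3 was the highest of all 12 libraries, and the log2 fold change was 0.08 ± 0.08 (SE) with that library and -0.02 without it. Jag1 (chromosome 2, 137081456 to 137116644), a ligand gene active in stem cell niches and vessel walls, had 10.5, 10.8 and 11.7 CPM in SERTPyramid and 10.6, 11.5 and 11.7 CPM in SERTfl/fl, a log2 fold change of -0.04 ± 0.09 (SE).

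The effector gene Rbpj (chromosome 5, 53466152 to 53657362) had 16.9, 18.2 and 17.7 CPM in SERTPyramid and 17.6, 17.2 and 18.1 CPM in SERTfl/fl libraries labelled male, a log2 fold change of -0.0058 ± 0.087 (SE). The target Hes5 (chromosome 4, 154960923 to 154962371), whose promoter is shown above, had 17.3, 18.5 and 21.3 CPM in SERTPyramid and 18.0, 18.6 and 17.5 CPM in SERTfl/fl. Again SERTPyramid replicate 3 was the highest of the 12 libraries, with a log2 fold change of 0.08 ± 0.09 (SE) with it and -0.01 without it. Hes1 (chromosome 16, 30064384 to 30067796) had 6.95, 7.26 and 7.05 CPM in SERTPyramid and 8.10, 6.78 and 7.76 CPM in SERTfl/fl, a log2 fold change of -0.09 ± 0.11 (SE). Hey1 (chromosome 3, 8663359 to 8667256), a target best known from vessels and also active in neural progenitors, had 34.4, 35.3 and 33.6 CPM in SERTPyramid and 37.3, 34.5 and 35.5 CPM in SERTfl/fl, a log2 fold change of -0.05 ± 0.06 (SE).

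**Figure D2:**
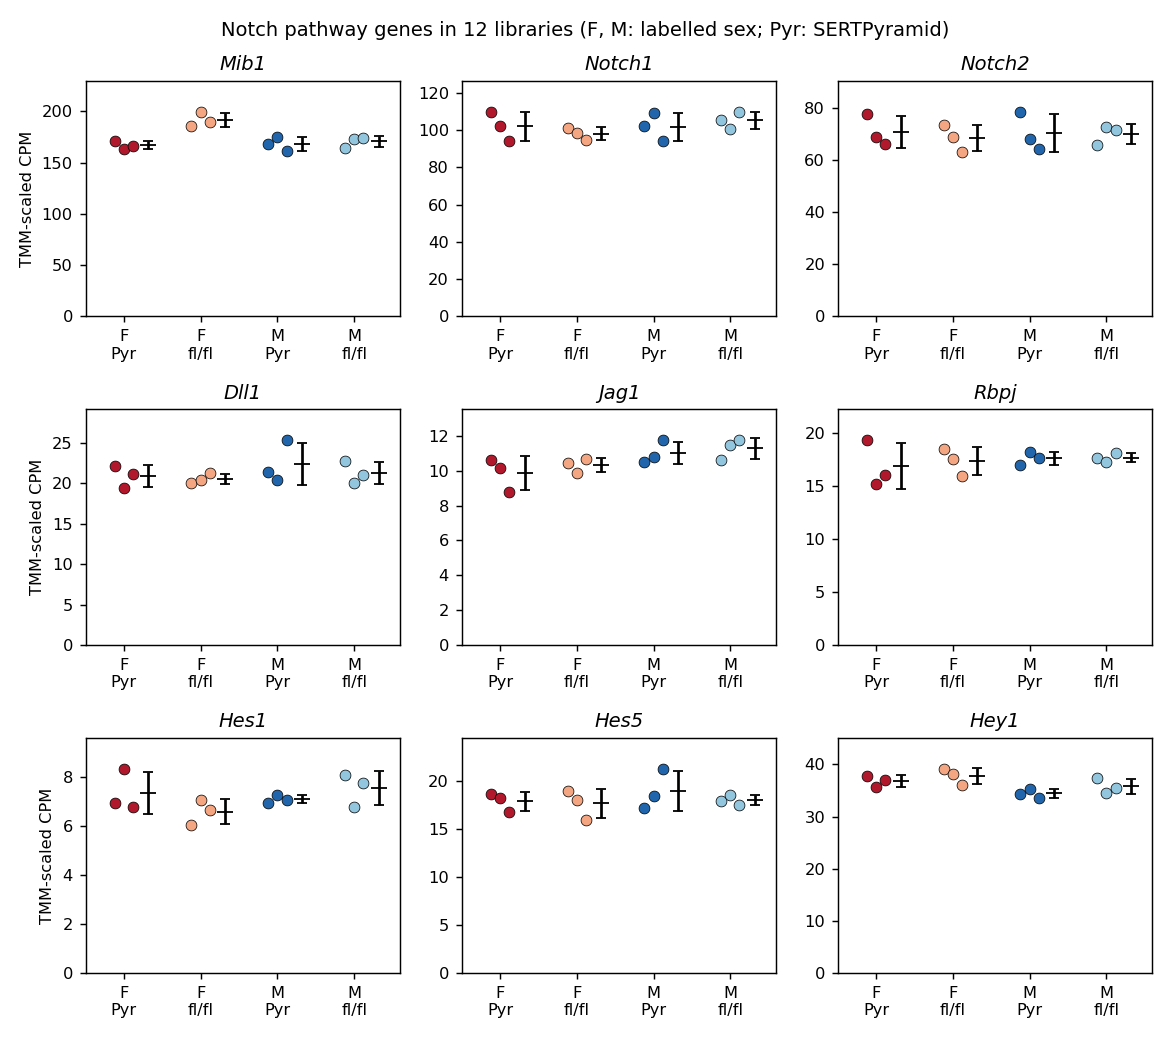
TMM-scaled CPM of the 9 genes in the 12 libraries, by labelled sex (F, M) and genotype (Pyr, SERTPyramid; fl/fl, SERTfl/fl), with points for libraries and bars for the mean ± SD of 3 libraries. Mib1 in SERTfl/fl libraries labelled female lies above all other libraries, and the groups of the other 8 genes overlap within each labelled sex.

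In libraries labelled female Mib1 was the member that stood apart, as its choice implies. It had 171, 163 and 167 CPM in SERTPyramid, a mean of 167 ± 3.86 CPM, and 186, 200 and 190 CPM in SERTfl/fl, a mean of 192 ± 7.16 CPM (SD, n = 3 each). All 3 SERTPyramid libraries lay below all 3 SERTfl/fl libraries, which held for 1 of 9 members and 9.38% of all genes, and the log2 fold change was -0.20 ± 0.05 (SE). The SERTfl/fl libraries labelled female were also above the libraries labelled male of both genotypes, which ran from 162 to 175 CPM. A SERTfl/fl group labelled female above all 9 other libraries was seen for 207 of 17631 genes, or 1.17%. Without replicate 1 of both SERTfl/fl groups, whose sex-chromosome transcripts set them apart, the log2 fold change of Mib1 was -0.22. It was -0.20 with labelled-female libraries fitted alone and SERTfl/fl replicate 3 left out.

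The other 8 members had overlapping groups among libraries labelled female, where 9.5% of all genes had every SERTPyramid library above every SERTfl/fl library. The receptor gene Notch1 had 110, 102 and 94.0 CPM in SERTPyramid and 101, 98.7 and 94.7 CPM in SERTfl/fl, and Notch2 had 77.5, 68.8 and 66.1 CPM in SERTPyramid and 73.5, 68.8 and 63.3 CPM in SERTfl/fl. Log2 fold changes were 0.06 ± 0.06 (SE) for Notch1 and 0.05 ± 0.08 (SE) for Notch2. Both ranges of SERTPyramid libraries reached across most of the SERTfl/fl range.

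The ligand gene Dll1 had 22.1, 19.4 and 21.2 CPM in SERTPyramid and 20.004, 20.5 and 21.2 CPM in SERTfl/fl libraries labelled female, with a log2 fold change of 0.02 ± 0.08 (SE). Jag1 had 10.6, 10.2 and 8.79 CPM in SERTPyramid and 10.5, 9.89 and 10.7 CPM in SERTfl/fl, a log2 fold change of -0.07 ± 0.09 (SE). The lowest Jag1 value of the 12 libraries was that of SERTPyramid replicate 3.

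The effector gene Rbpj had 19.3, 15.2 and 16.1 CPM in SERTPyramid and 18.5, 17.6 and 15.9 CPM in SERTfl/fl libraries labelled female, a log2 fold change of -0.04 ± 0.09 (SE), which was 0.02 without replicate 1 of both SERTfl/fl groups. Among its targets, Hes1 had 6.95, 8.34 and 6.79 CPM in SERTPyramid and 6.04, 7.07 and 6.65 CPM in SERTfl/fl, the largest increase among the members at 0.16 ± 0.11 (SE) on the log2 scale. Its highest value was 1 library, SERTPyramid replicate 2, and the other 2 SERTPyramid libraries lay inside the SERTfl/fl range. Hes5 had 18.7, 18.2 and 16.8 CPM in SERTPyramid and 18.997, 18.0 and 16.0 CPM in SERTfl/fl, and Hey1 had 37.8, 35.6 and 36.9 CPM in SERTPyramid and 39.2, 38.2 and 36.1 CPM in SERTfl/fl. Log2 fold changes were 0.02 ± 0.09 (SE) for Hes5 and -0.04 ± 0.05 (SE) for Hey1.

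**Figure D3:**
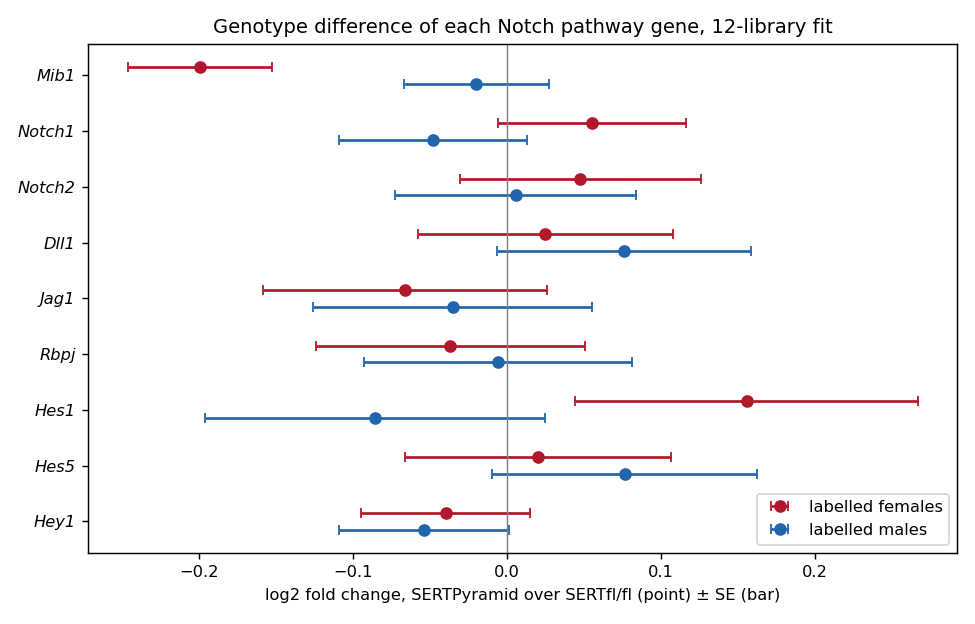
Log2 fold change of SERTPyramid over SERTfl/fl for each of the 9 genes, among libraries labelled female (red) and male (blue), with bars of ± SE from the fit of 12 libraries. Mib1 among labelled females lies at -0.20, and the other values lie between -0.09 and 0.16.

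Set against each other, the genotype difference among labelled females minus that among labelled males was -0.18 ± 0.07 (SE) on the log2 scale for Mib1 and 0.24 ± 0.16 (SE) for Hes1, with the other 7 members between -0.06 and 0.10. Averaged over the labelled sexes, Mib1 lay at -0.11 ± 0.03 (SE) on the log2 scale and the other members lay between -0.05 and 0.05. Both quantities contain the labelled-female values that chose Mib1 and are given without a test. In both, 0% of the 17631 genes passed in edgeR, with 785 and 1145 genes at an unadjusted p under 0.05, DESeq2 calling 1 and 0, and limma voom 0 in each.

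The rest of the pathway was read from 53 further genes in 8 lists, of which 51 were tested. These lists too were chosen with earlier results of these data known, so their values may not be independent of that choice. Dlk1, a gene of an unusual Notch ligand, was listed at 0 in all 12 libraries, and the repressor gene Hes3 had 0 to 3 counts. In both labelled sexes 0 of 51 genes passed over all genes in edgeR, as did 0% of all genes tested, with DESeq2 and limma voom also calling 0 of them, while 2 of 51 (3.92%) among labelled males and 11 of 51 (21.6%) among labelled females had p under 0.05 before adjustment, beside 3.16% and 8.04% of all genes. Among labelled males 23 of 51 lay above 0 and 28 below, with a median log2 fold change of -0.01 beside 0.0016 over all genes. Among labelled females 24 lay above 0 and 27 below, with a median of -0.0027 beside -0.00038 over all genes.

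By role, the list medians stayed near 0. In labelled-female libraries they ran from -0.09 for 6 proneural factors, the neuron-promoting genes that Hes repressors hold down, to 0.08 for the 2 other receptors, Notch3 and Notch4. In labelled-male libraries they ran from -0.03 for 7 genes of the nuclear complex to 0.06 for 5 further ligands. The nuclear complex, 1 of 8 lists, had 6 of 7 genes below 0 in each labelled sex, and 0 of them passed. Of all 17631 genes 8837 lay below 0 among labelled females and 8720 among labelled males. The median of the nuclear complex was -0.03 in each labelled sex, beside a median SE of 0.09.

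**Figure D4:**
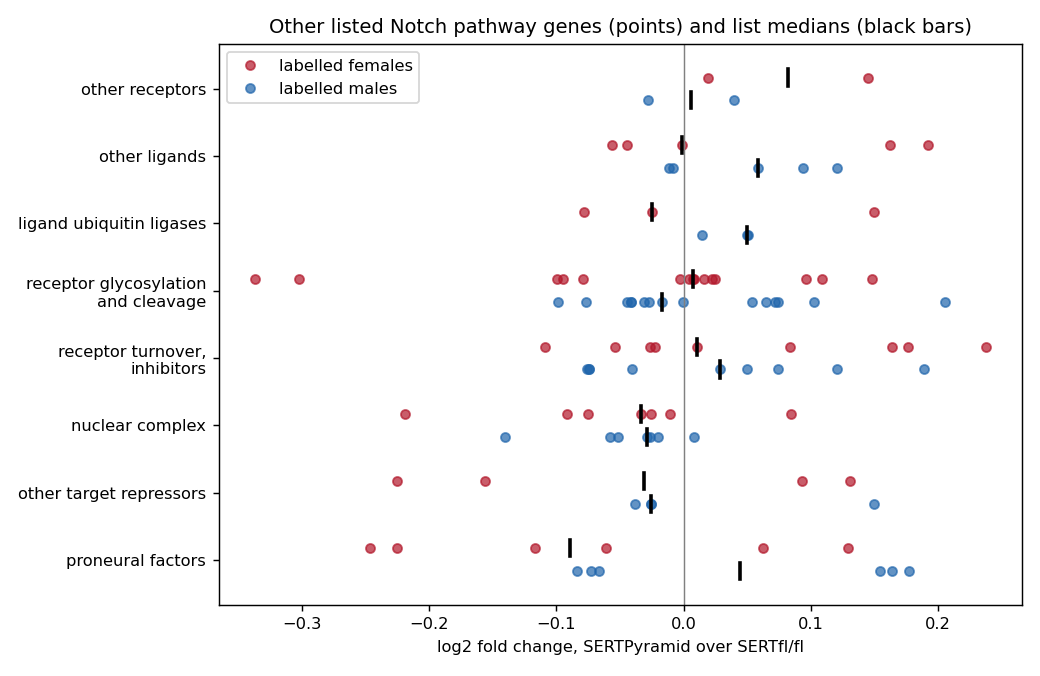
Log2 fold change of SERTPyramid over SERTfl/fl for 51 other Notch pathway genes in 8 lists, with points for genes, black bars for list medians, red for libraries labelled female and blue for male. List medians lie between -0.09 and 0.08, and 0 of the 51 genes passed the threshold of 0.05.

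In level per length, the receptor gene Notch3, best known from the muscle cells of vessel walls, stood at 7.58 ± 0.426 CPM per kb, close to Notch1, and Notch4, an endothelial receptor gene, at 1.63 ± 0.122 CPM per kb (SD, n = 12). These genes are outside the rule for named genes and complete the receptor family. How close Notch3 lies to Notch1 depends on the length used. The union of exons of Notch1 is 14232 bases against 9488 in its longest transcript, and that of Notch3 is 8089 against 8016. Of the classical ligands Jag2 was the highest at 10.7 ± 0.679 CPM per kb, against 1.82 for its paralog Jag1.

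The pathway genes with the smallest p among labelled females were Neurod1, Psenen, Mib2 and Jag2. Neurod1, a proneural factor of dentate granule neurons, had 184, 157 and 185 CPM in SERTPyramid and 217, 206 and 201 CPM in SERTfl/fl, or -0.25 ± 0.07 (SE) as log2 fold change, with an edgeR adjusted p = 0.530. Psenen, which encodes a gamma-secretase subunit, had 6.29, 6.74 and 6.49 CPM in SERTPyramid and 7.84, 8.14 and 8.06 CPM in SERTfl/fl, or -0.30 ± 0.10 (SE) as log2 fold change, with an edgeR adjusted p = 0.541. Both had all SERTPyramid libraries below all SERTfl/fl libraries, without passing.

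Mib2, the paralog of Mib1 and also a ligase for Notch ligands, had 99.0, 104 and 106 CPM in SERTPyramid and 90.7, 93.1 and 94.4 CPM in SERTfl/fl libraries labelled female. The log2 fold change, 0.15 ± 0.05 (SE; edgeR adjusted p = 0.541), had the opposite sign to that of Mib1. Jag2 had 78.9, 78.2 and 78.2 CPM in SERTPyramid and 67.5, 72.7 and 70.1 CPM in SERTfl/fl, or 0.16 ± 0.06 (SE) as log2 fold change, with an edgeR adjusted p = 0.544. Groups that did not overlap were seen for 7 pathway genes higher and 8 lower in SERTPyramid out of 51, or 13.7% and 15.7%, beside the 9.5% and 9.38% of all genes.

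Among labelled males the smallest p were those of Numb, Neurod1, Psenen and Poglut1. Numb, which encodes an inhibitor of Notch, had 17.5, 15.4 and 15.3 CPM in SERTPyramid and 14.0, 13.9 and 14.4 CPM in SERTfl/fl, or 0.19 ± 0.08 (SE) as log2 fold change, with an edgeR adjusted p = 0.999. Its SERTPyramid libraries were all above its SERTfl/fl libraries. That held for 3 of 51 pathway genes (5.88%) among labelled males, beside 3.67% of all genes. The reverse held for 1 of 51 (1.96%), beside 3.26% of all genes. Neurod1 had 205, 233 and 246 CPM in SERTPyramid and 220, 193 and 202 CPM in SERTfl/fl, a log2 fold change of 0.15 ± 0.07 (SE). For Psenen the log2 fold change was 0.21 ± 0.10 (SE), and for Poglut1, a receptor glycosyltransferase gene, 0.10 ± 0.06 (SE). The adjusted p of these 3 genes was also 0.999 by edgeR. Neurod1 and Psenen had opposite signs in the labelled sexes, with a difference of -0.40 ± 0.10 (SE) on the log2 scale for Neurod1 and -0.51 ± 0.14 (SE) for Psenen, and neither difference passed (edgeR adjusted p = 0.999 for both).

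The 6 labelled-female libraries fitted alone gave more calls. The common spread between libraries of a group, as a coefficient of variation, was 0.0508 in that fit. It was 0.0668 in the fit of 12 libraries and 0.0785 in labelled-male libraries alone. Whether this spread accounts for the number of calls was not tested. With labelled females alone edgeR called 415 of 17108 genes, or 2.43%, with 1.65% higher and 0.777% lower in SERTPyramid. Of the 9 members 1 was called, Mib1, lower at -0.20, which repeats the values that chose it. Of the 51 pathway genes, from lists chosen with earlier results of these data known, 4 were called. Jag2 (0.16, adjusted p = 0.0342 by edgeR), Mib2 (0.15, adjusted p = 0.0484 by edgeR) and Dtx3 (0.16, adjusted p = 0.0239 by edgeR), which encodes a Deltex ligase, rose, and Neurod1 (-0.24, adjusted p = 0.0449 by edgeR) fell, the values being log2 fold changes. Dtx3 averaged 195.9 ± 7.63 CPM in SERTPyramid and 174.8 ± 2.2 CPM in SERTfl/fl (SD, n = 3 each).

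Each of the 4 pathway calls was lost when certain single libraries were left out, while the log2 fold changes kept their sign. They ran from 0.145 to 0.197 for Dtx3 and 0.129 to 0.179 for Mib2. For Jag2 they ran from 0.134 to 0.190, and for Neurod1 from -0.287 to -0.172. Dtx3 kept its call when SERTPyramid replicate 1 was left out and lost it without any of the other 5 libraries, with an adjusted p of up to 0.194 by edgeR. Mib2 likewise held only without SERTPyramid replicate 1, with an adjusted p of up to 0.215 by edgeR. Jag2 lost its call without SERTfl/fl replicate 1 or 3 or SERTPyramid replicate 2 (adjusted p up to 0.173 by edgeR). Neurod1 lost it without any of the 3 SERTfl/fl libraries or without SERTPyramid replicate 2 (adjusted p up to 0.186 by edgeR). In the same fit of the labelled-male libraries 0 of 17049 genes were called, 0 of them in the pathway.

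Summed levels of cell type markers overlapped between genotypes among labelled-female libraries in all 8 lists, and 0 markers passed in the fit of 12 libraries. All 9 endothelial markers had log2 fold changes below 0, with a median of -0.14, and their summed level was 249 to 285 CPM in SERTPyramid and 277 to 294 CPM in SERTfl/fl. All 9 choroid plexus markers also lay below 0, with a median of -0.42 beside a median SE of 0.73. Their summed levels were 1395, 838 and 75.8 CPM in SERTPyramid and 1133, 1470 and 1106 CPM in SERTfl/fl. The lowest sum was that of 1 library, SERTPyramid replicate 3. The 8 markers of dividing progenitors, cells in which Notch targets are active, had 6 of 8 fold changes below 0 and summed to 154 to 178 CPM in SERTPyramid and 169 to 192 CPM in SERTfl/fl. The 12 radial glia and astrocyte markers had 8 above 0 and summed to 4071 to 4145 CPM in SERTPyramid and 4077 to 4445 CPM in SERTfl/fl. The 8 pyramidal neuron markers had 7 below 0 and summed to 3927 to 4263 CPM in SERTPyramid and 4054 to 4646 CPM in SERTfl/fl. The 8 oligodendrocyte lineage markers had 5 above 0 and summed to 746 to 768 CPM in SERTPyramid and 721 to 750 CPM in SERTfl/fl, and 2 of them were called higher when labelled females were fitted alone. Among 8 mural markers 5 lay below 0, with sums of 302 to 313 CPM in SERTPyramid and 306 to 322 CPM in SERTfl/fl, and among 6 microglial markers 4 lay below 0, with sums of 182 to 188 CPM in SERTPyramid and 175 to 199 CPM in SERTfl/fl. The radial glia and astrocyte list also had 1 marker called higher when labelled females were fitted alone. No marker of these lists was at 0 in any library. Their part in the Mib1 and pathway values was not tested.

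Among labelled males the endothelial sum was 273 to 328 CPM in SERTPyramid and 277 to 319 CPM in SERTfl/fl. The radial glia and astrocyte sum was 3830 to 4274 CPM in SERTPyramid and 3838 to 4275 CPM in SERTfl/fl, and that of dividing progenitors 176 to 189 CPM in SERTPyramid and 177 to 186 CPM in SERTfl/fl. The choroid plexus sum was 561 to 2745 CPM in SERTPyramid and 1352 to 2021 CPM in SERTfl/fl. The groups overlapped for each of these sums.

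The genes whose profile over the 12 libraries was most like a member were ranked by Pearson r of log2 CPM among 12748 genes, and the top 3 are given as a description. For Mib1 they were Klhdc10 (r = 0.95, Spearman rho = 0.93), Zbtb25 (r = 0.90, rho = 0.78) and Cltc (r = 0.90, rho = 0.94), the gene of the clathrin heavy chain. For Notch1 they were Musk (r = 0.89, rho = 0.88), Stard8 (r = 0.88, rho = 0.81) and Fam234a (r = 0.88, rho = 0.93). For Hes5 they were Cog4 (r = 0.87, rho = 0.81), Ckap2 (r = 0.85, rho = 0.66) and Mrm2 (r = 0.85, rho = 0.73). None of the other 8 members was among the top 3 of these genes. All profiles share the 12 libraries and their scaling. The profile of Mib1 also contains the labelled-female values that chose it, so its ranking is no separate evidence.

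Several members overlap other annotated genes. Mib1 has the microRNA host gene Mir133a-1hg on the opposite strand, Hes5 has Gm20421, and Notch1, Rbpj and Dll1 also have genes on the opposite strand. Of the other genes named, Psenen overlaps the coding gene U2af1l4 on the opposite strand and Neurod1 overlaps Cerkl on the same strand. The library kit does not mark strand, so reads from these overlaps cannot be assigned to a strand.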

How the data were processed

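Total RNA of pooled dorsal hippocampus was made into libraries from 250 ng with a kit that does not mark strand, per the labels. The authors deposited raw read counts, whole numbers for each Ensembl identifier, and the build is mm10, per the submitters' processing notes. For the aligner, the counting settings and the annotation, nothing is given in the sources used here. Symbols, positions and exon lengths came from GENCODE M21 (GRCm38), which matched 52487 of 52634 identifiers.

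Genes were filtered by filterByExpr, scaled by TMM and tested with the quasi-likelihood F test (robust) of edgeR 4.0.16 in R 4.3.3, with 12 libraries in 4 groups. Adjusted p is by Benjamini-Hochberg over all genes, with a threshold of 0.05. Standard errors were obtained by dividing the size of each log2 fold change by the root of its F statistic. Log2 CPM used a prior count of 2. Libraries of a group were compared in pairs, and none agreed within sampling noise (chi-square over degrees of freedom 2.39 to 12.6). The fit was tested on simulated data with changes put into 200 genes of SERTPyramid libraries labelled male. It recovered 18% of 1.2-fold, 60% of 1.5-fold, 86% of 2-fold and 94% of 4-fold changes, with 7 false calls. Most 1.2-fold changes were thus missed, and 0 calls do not show that changes of that size are absent.

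The members, lists and tests were chosen with earlier results of these data known. Named were all members, pathway genes called in either fit, the 4 pathway genes with the smallest p in each labelled sex, and the 3 genes most like Mib1, Notch1 and Hes5, with mean log2 CPM of at least 1. Alternatives were DESeq2 1.42.0, limma 3.58.1 voom with quality weights, RLE scaling, other filters (none, or 1 CPM in 6 libraries), a threshold of 0.1, a replicate block, each labelled sex alone, and left-out libraries. Leaving out libraries in the fits of 1 labelled sex was chosen after seeing the data.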

Additional observations from a re-analysis of the deposited data

How the results depend on the processing

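Counts of calls in the fit of 12 libraries were 0 throughout, and 256 of 282 alternative counts were equal to them. Among labelled females edgeR called 415 genes, 1 member and 4 pathway genes when that labelled sex was fitted alone. Without a low-count filter it called 103 genes among labelled females, 5 among labelled males, 14 in the difference between them and 66 in the average, with 1 pathway gene, Neurod1, among labelled females and 1, again Neurod1, in the difference. DESeq2 called 1 gene among labelled females and 1 in the difference. Over fits that left out 1 library, with 12 libraries or with the labelled sex alone, labelled-female counts ran from 0 to 464 genes, 0 to 1 members and 0 to 5 pathway genes, and those of the average from 0 to 144, the highest without SERTPyramid replicate 2 labelled male. With labelled females alone the count was 251, 158 and 280 genes without SERTfl/fl replicate 1, 2 and 3, and 464, 136 and 400 genes without SERTPyramid replicate 1, 2 and 3. Mib1 lost its labelled-female call in the fit of that sex alone without SERTfl/fl replicate 2 or SERTPyramid replicate 2. The member calls among labelled females are those of Mib1 and repeat the values that chose it. Keeping or losing them is therefore a description and no test of Mib1.

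Among labelled males 224 of 243 log2 fold changes of members kept their sign, and none was called in either case. Notch2 lay at -0.0017 with the replicate block, -0.027 with limma voom and -0.034 without replicate 1 of both SERTfl/fl groups. Over fits of 12 libraries without 1 library the ranges that crossed 0 were -0.080 to 0.066 for Notch2, -0.048 to 0.0090 for Mib1, -0.10 to 0.0058 for Notch1, -0.022 to 0.14 for Dll1, -0.028 to 0.023 for Rbpj and -0.013 to 0.14 for Hes5. With labelled males alone the sign turned for Notch2 without SERTfl/fl replicate 1 (-0.034) or SERTPyramid replicate 1 (-0.082), for Rbpj without SERTfl/fl replicate 3 (0.0094) or SERTPyramid replicate 1 (0.020), and without SERTPyramid replicate 3 for Mib1 (0.011), Notch1 (0.0074), Dll1 (-0.021) and Hes5 (-0.011). Among labelled females, given as a description, the sign held in 20 of 27 alternatives for Rbpj and 23 of 27 for Notch2 and Hes5. It held in 25 of 27 for Dll1 and Jag1 and 26 of 27 for Notch1. For Mib1, Hes1 and Hey1 it held in 27 of 27. The cause of these sign changes was not tested. Same-numbered libraries of different groups did not deviate together (correlation of deviations -0.225 to 0.234, and 6 of 12 libraries were closest to their own number), so the numbers are not read as pairs, and the replicate block also called 0 genes in each comparison. Hes1, with at most 185 counts, is the member most limited by depth.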
